A study of Rattus norvegicus with 6 samples.

Results

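The messenger RNAs of Pdcd4 and of 7 eIF4 translation initiation factors (Eif4a1, Eif4a2, Eif4g1, Eif4g2, Eif4e, Eif4ebp1 and Eif4b) were followed in rat β-cells depleted of the nuclear receptor COUP-TFII. The members are all probe sets annotated to these 8 genes alone, and they number 21 of the 31042 probe sets tested, for 8 of 14217 named genes, with 5 for Pdcd4 and 16 for the eIF4 factors. The eIF4 factors were listed for their function in translation initiation. Of them, Pdcd4 acts on eIF4A and on its binding to eIF4G, as described below. Pdcd4 itself was taken up because 2 of its probe sets had passed an adjusted p of 0.05 in a limma fit on these same arrays with the replicate number as a block, so its difference between the groups is given as a description and is not tested.

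RNA was measured on Affymetrix rat arrays in 832/13 INS-1 cells, a clonal insulinoma line that makes insulin. COUP-TFII depleted cells were electroporated with siRNA against COUP-TFII and control cells with a scrambled siRNA, with 3 arrays each. Both groups were cultured for 48 h in medium with 11 mM glucose, at passages between 7 and 25. The labels call the arrays of a group biological replicates without naming separate cultures, and p-values measure only the spread between these arrays. Since 1 cell line was used, no animal or islet stands behind these values.

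eIF4F is the complex that brings an mRNA to the small ribosomal subunit. In it eIF4E binds the mRNA cap, eIF4G is the scaffold, and eIF4A is an RNA helicase that unwinds the leader of the mRNA with the help of eIF4B. Pdcd4, programmed cell death 4, holds eIF4A in an inactive form and keeps it from eIF4G, and it acts as a tumour suppressor. S6 kinase downstream of mTORC1 phosphorylates Pdcd4, after which the SCF ubiquitin ligase with β-TrCP marks it for degradation. In mouse β-cells Pdcd4 has been linked to cell death.

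COUP-TFs bind DNA at the hexamer AGGTCA, often at a repeat of it. The bases before the start of Pdcd4, the member chosen for its difference between the groups, are therefore shown. The window was taken from RefSeq, build GRCr8, plus strand, at chr1:262926445-262926694. It ends at the start that RefSeq's table gives for Pdcd4, which lies inside the annotated gene, so longer transcripts begin upstream of it. Capitals mark CCAAT on either strand, a motif chosen after the sequence was read.
Pdcd4: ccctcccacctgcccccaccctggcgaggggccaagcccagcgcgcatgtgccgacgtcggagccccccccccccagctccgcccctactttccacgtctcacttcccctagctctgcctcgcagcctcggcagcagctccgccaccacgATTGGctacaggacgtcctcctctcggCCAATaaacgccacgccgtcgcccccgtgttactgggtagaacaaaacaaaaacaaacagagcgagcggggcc
The letters AGGTCA were in neither strand of the 300-base window around the start of any of the 6 members with an entry (Pdcd4, Eif4a1, Eif4a2, Eif4g1, Eif4g2 and Eif4e), against 16.2% of all 33469 such windows. A direct repeat of AGGTCA with 1 base between the copies was in none of the 6 either, against 0.0538% of all windows. CCAAT was found in 4 of the 6, against 37.5% of all. Eif4b and Eif4ebp1 had no entry. These counts describe these windows and nothing beyond them.

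The siRNA target was read first. Nr2f2 1389554_at, the brightest probe set of the COUP-TFII gene, read 32.8 ± 12.4 in COUP-TFII depleted cells and 199 ± 31.5 in control cells (SD, n = 3 each). Of the listed markers, all 7 measured β-cell genes were above the control level defined next, all 5 measured acinar and duct genes were dim, and the brightest fibroblast, endothelial or immune gene, Pdgfra, averaged 37.9. The summed β-cell markers ran from 43286 to 47159 in COUP-TFII depleted cells and from 32074 to 44339 in control cells, and the 4 measured markers of other islet cells, led by Gcg, from 850 to 8114 and from 429 to 6356. The part of these levels in the results was not tested. The ratio of 3′ to 5′ signal for β-actin, a sign of RNA integrity, ran from 2.64 to 3.39 in COUP-TFII depleted cells and from 2.88 to 3.0 in control cells. The highest was that of COUP-TFII siRNA replicate 2. For GAPDH the ratio ran from 1.04 to 1.07 in depleted cells and from 0.974 to 1.09 in control cells. Signals are linear MAS5 intensities, and 20.7, the brightest reading among 27 Bacillus controls, served as the level of a transcript that is not there. A probe set with both group means at or below it is called dim.

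Pdcd4 read lower by mean in COUP-TFII depleted cells on all 5 of its probe sets, and on 4 of them the groups did not overlap. Among all probe sets 3.45% read lower without overlap, and since the gene was chosen by this difference nothing is read from that share. Pdcd4 1383328_x_at had signals of 158, 118 and 231 in COUP-TFII depleted cells of replicates 1, 2 and 3, against 359, 333 and 507 in control cells. Every depleted array lay below every control array, and replicate 3 was the highest of its group on both sides. The mean was 169 ± 57.6 in COUP-TFII depleted cells and 400 ± 93.9 in control cells (SD, n = 3 each), a log2 fold change of -1.27 (SE 0.27).

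Pdcd4 1383327_at gave 106, 88.7 and 143 in COUP-TFII depleted cells, against 211, 199 and 298 in control cells. It had a log2 fold change of -1.07 (SE 0.24), and replicate 3 again stood highest and replicate 2 lowest in each group. The signal left in depleted cells was 50.4%, 44.6% and 47.9% of that in the control array with the same number, the narrowest range of the 5 probe sets.

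Pdcd4 1383326_a_at, the brightest of the gene, read 258, 183 and 170 in COUP-TFII depleted cells, against 424, 428 and 677 in control cells. Its log2 fold change of -1.31 (SE 0.23) was the largest of the 5. The arrays fell in another order here, with replicate 3 lowest among depleted and highest among control cells, so that 60.7%, 42.8% and 25.1% of the control signal was left in replicates 1, 2 and 3. These 3 probe sets are annotated to the same expressed sequence tag and are therefore not independent readings of the gene. The suffix _x_at marks a probe set some of whose probes also match other transcripts, and _a_at one that reads several transcripts of a gene.

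Pdcd4 1387521_at, annotated to the gene's RefSeq transcript, gave 144, 111 and 185 in COUP-TFII depleted cells, against 271, 215 and 295 in control cells. The groups did not overlap, and replicate 3 was again the highest in each, and the log2 fold change was -0.85 (SE 0.22). The dim end of the gene was Pdcd4 1383329_at, with 16.5, 42.7 and 36.3 in COUP-TFII depleted cells, against 24.3, 38.9 and 52.7 in control cells. Its groups overlapped, replicate 2 read higher in depleted cells, and the log2 fold change of -0.32 (SE 0.49) was smaller than its error.

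**Figure D1:**
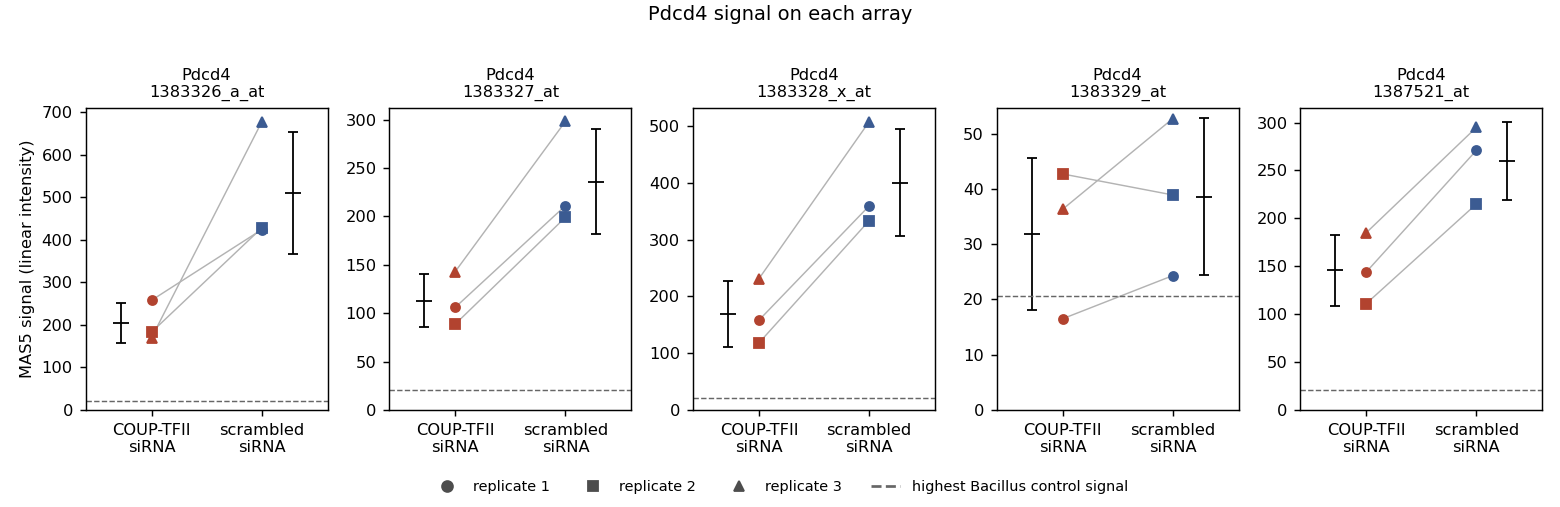
Signal per array (MAS5 intensity, linear axes from 0) of the 5 Pdcd4 probe sets in COUP-TFII depleted cells (left of each panel, red) and control cells (right, blue). Symbols are replicates joined by number, bars are mean ± SD (n = 3), and a dashed line marks the Bacillus level, 20.7; 4 panels show no overlap, and 1383329_at, with 1 depleted array under that line, does.

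The values that chose the gene were the adjusted p of the blocked limma fit, 0.0185 for 1383328_x_at and 0.0392 for 1383327_at. The next Pdcd4 probe sets, which did not pass, were 1387521_at at 0.118 and 1383326_a_at at 0.194. Of these, 1383326_a_at had the larger difference and the more unequal pairs. In that fit 5 of 31042 probe sets passed as lower, or 0.0161%. Without the block none of the 31042 passed, with 717 at an unadjusted p up to 0.05. A log2 fold change of -1 or below was found for 3 Pdcd4 probe sets, beside 6.09% of all probe sets. Of the 15521 whose mean signal reached the median, 11 did so (0.0709%), and 3 of these read Pdcd4 and 2 read Nr2f2. The 3 Pdcd4 probe sets are annotated to the same expressed sequence tag. Since the gene was chosen by this difference, nothing is read from these shares.

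By group mean, the probe sets of the helicases that Pdcd4 binds were not lower in COUP-TFII depleted cells. Their 95% intervals from limma without the block held values on both sides of 0, down to -0.18 for Eif4a1 and -0.40 for Eif4a2 1397697_at. None of the 16 eIF4 factor probe sets passed an adjusted p of 0.05 in either limma fit, unpaired or blocked by replicate number (lowest 1 without and 0.803 with the block), and none had an unadjusted p up to 0.05 in either (lowest 0.255 without the block), where 2.31% of all probe sets had one in the unpaired and 6.23% in the blocked fit. No eIF4 probe set had groups that did not overlap, against 6.69% of all probe sets. By mean 10 of the 16 were higher and 6 lower, and the median log2 fold change was 0.11, beside -0.0031 over all probe sets. With only the brightest probe set of each of the 7 genes, 3 were higher and 4 lower. The median was then -0.0004, beside -0.0038 over the brightest probe sets of all genes.

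Eif4a1 encodes the main eIF4A helicase of growing cells. Its only probe set, 1371936_at, read 5003, 5587 and 4381 in COUP-TFII depleted cells, against 4988, 4176 and 3796 in control cells. The groups overlapped, and the same-numbered differences were 0.0044, 0.42 and 0.21 on the log2 scale. The log2 fold change was 0.21 (95% interval -0.18 to 0.60), and it was 0.10 after quantile normalization. Eif4a2, a close paralog that can take the place of eIF4A1 in the complex, had 4126, 3710 and 4948 on 1371642_at in COUP-TFII depleted cells, against 3281, 2903 and 5289 in control cells. Replicate 3 was the highest of both groups, as it was for Pdcd4 1383328_x_at. The log2 fold change was 0.20 (95% interval -0.35 to 0.74), and it was 0.12 after quantile normalization. The dimmer Eif4a2 1397697_at ran from 304 to 523 in depleted cells and from 304 to 444 in control cells, with a log2 fold change of 0.16. Its replicate 2 arrays, both at 304, were the lowest of their groups.

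The scaffolds were read by 7 probe sets. Eif4g1, the scaffold of eIF4F, gave 654, 701 and 730 on its brightest probe set, 1388322_at, in COUP-TFII depleted cells, against 676, 865 and 688 in control cells. One control array stood above the rest, and the log2 fold change was -0.09 (95% interval -0.42 to 0.24). The 3 dimmer probe sets of the gene had log2 fold changes of 0.24 (1385152_at), 0.24 (1390340_a_at) and 0.25 (1395702_at), with standard errors of 0.45, 0.25 and 0.41. The direction therefore differed between the brightest probe set and the others, and none of these differences exceeded its error.

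Eif4g2 encodes DAP5, a relative of eIF4G that lacks the site for eIF4E and serves initiation without the cap-binding protein. It read 4098, 3977 and 3537 on 1367469_at in COUP-TFII depleted cells, against 3710, 3746 and 3597 in control cells. That log2 fold change of 0.07 had a 95% interval of -0.25 to 0.39, the narrowest of the 16, and it was -0.0043 after quantile normalization. Its other probe sets gave -0.06 (1388359_at, from 675 to 1040 in depleted cells and from 753 to 944 in control cells) and 0.07 (1397520_at, from 974 to 1510 and from 982 to 1506).

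Among the cap-binding members, Eif4e read 2904, 3091 and 2641 on 1398799_at in COUP-TFII depleted cells, against 3130, 2749 and 2758 in control cells. The group means were equal at 2879, with SDs of 226 in depleted and 218 in control cells, and the 95% interval of the log2 fold change was -0.32 to 0.32. Eif4e 1386997_at, between 30.8 and 75.1 on the 6 arrays, had a log2 fold change of 0.20 (SE 0.38). The dim Eif4e 1394529_at, under 20.7 on all 6 arrays, had -0.41 (SE 0.70). Eif4ebp1 encodes the repressor that competes with eIF4G for eIF4E, and mTORC1 releases it by phosphorylation. Its only probe set, 1386888_at, read 20.3, 7.61 and 33.3 in COUP-TFII depleted cells, against 27.4, 14.6 and 41.7 in control cells. The depleted array read lower in 3 of 3 same-numbered pairs, as 14% of all probe sets did, but the groups overlapped, 3 of 6 arrays lay under the Bacillus level, and the log2 fold change of -0.57 (95% interval -2.09 to 0.96) was 0.03 without COUP-TFII siRNA replicate 2. Whether this repressor differed was thus not detectable at this signal.

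Eif4b encodes the cofactor of the helicase and, like Pdcd4, is a substrate of S6 kinase. On 1371404_at it read 991, 1146 and 1357 in COUP-TFII depleted cells, against 1002, 1538 and 1172 in control cells, a log2 fold change of -0.08 (95% interval -0.51 to 0.36). On 1372124_at it read 408, 491 and 556 in depleted cells, against 400, 375 and 546 in control cells, with a log2 fold change of 0.15 (95% interval -0.28 to 0.57). Both pairs of groups overlapped and the directions differed. For the 10 eIF4 probe sets whose mean log2 signal was at least that of 200, every 95% interval lay within -0.51 and 0.74, while over all 16 the intervals reached -2.09 and 1.27.

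**Figure D2:**
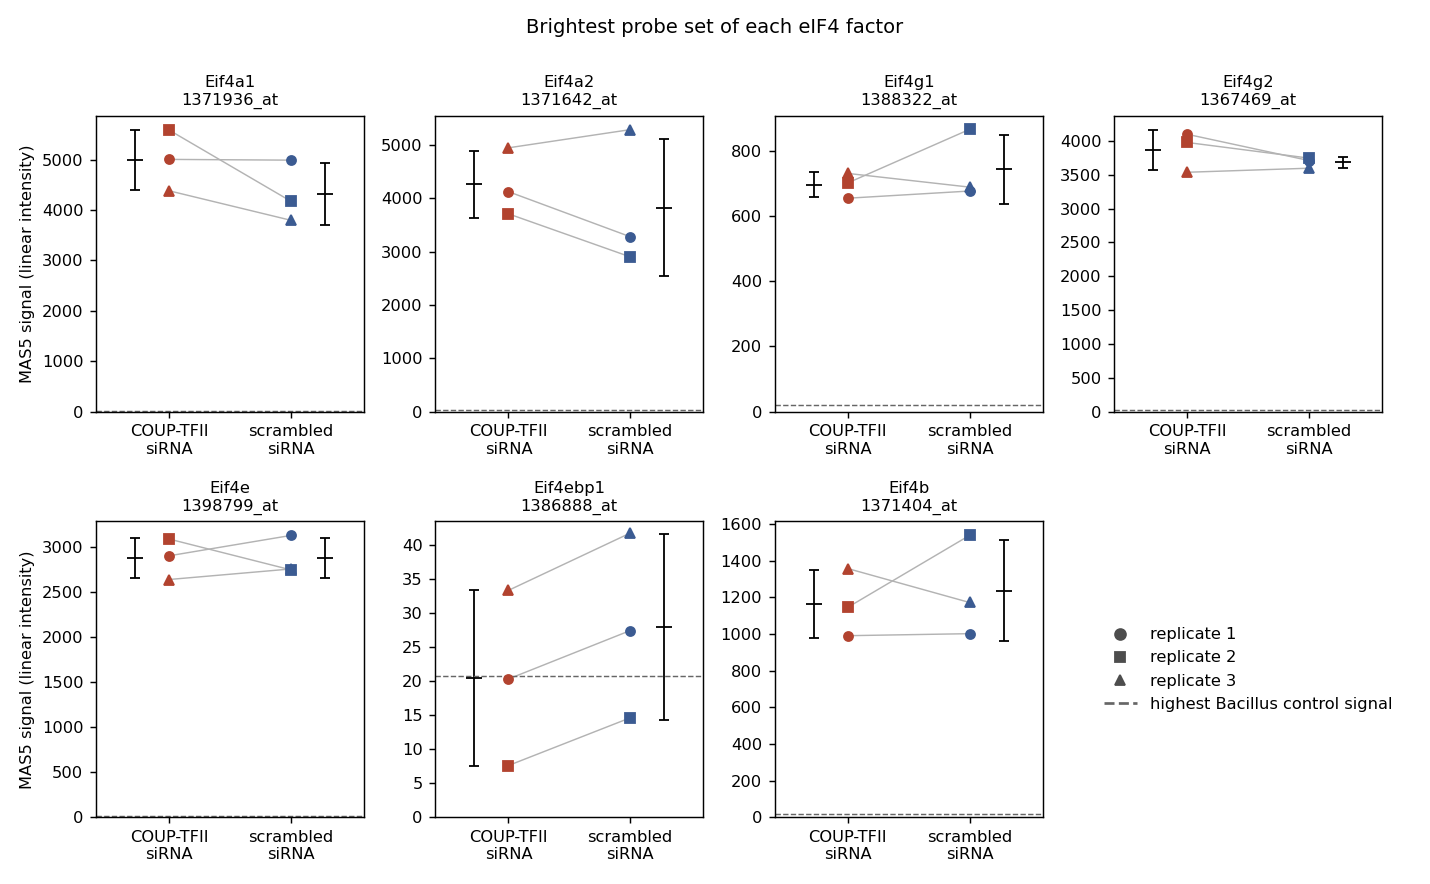
Signal per array (MAS5 intensity, linear axes from 0) of the brightest probe set of each of the 7 eIF4 factors, drawn as in the plot of Pdcd4 signal, with COUP-TFII depleted cells left of control cells. The groups overlap in every panel, and Eif4ebp1 alone lies around the dashed Bacillus level, 20.7.

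**Figure D3:**
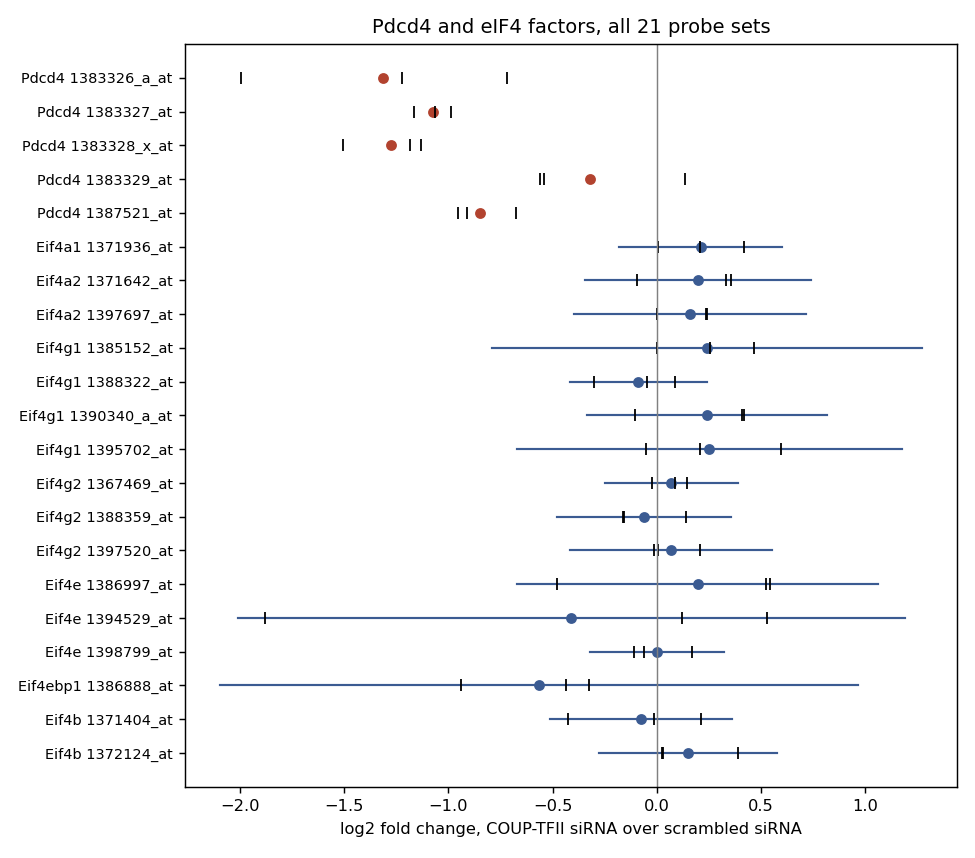
log2 fold change (COUP-TFII depleted over control cells) of all 21 probe sets: points are group differences, black ticks the 3 same-numbered pairs, and blue lines the 95% intervals of the unpaired limma fit for the eIF4 factors (none is drawn for Pdcd4, which was chosen by this difference). The Pdcd4 points lie between -1.31 and -0.32 and the eIF4 points between -0.57 and 0.25.

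Within same-numbered pairs, the median log2 difference over the 5 Pdcd4 probe sets was -0.91, -1.17 and -1.06 for replicates 1, 2 and 3. For the 16 eIF4 probe sets it was 0.02, 0.04 and 0.10. The siRNA target kept 25.8%, 11.8% and 13.3% of its control signal in replicates 1, 2 and 3 on Nr2f2 1389554_at, and 24.6%, 33.8% and 34.5% on Nr2f2 1370063_at. Its own probe sets thus put the pairs in different orders. On the dim Nr2f2 1395863_at, 102%, 58.6% and 77.2% was left. The groups overlapped there, with a log2 fold change of -0.37 (SE 0.56). Pdcd4 1383328_x_at kept 44.1%, 35.3% and 45.6%. No relation between target and Pdcd4 was tested over these 3 pairs.

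The genes whose profile over the 6 arrays was most like that of Pdcd4 1383326_a_at were sought among 12187 probe sets of other genes, none of them under the median signal, by the root mean square difference of the log2 values after each probe set's own mean was subtracted. The nearest were Ptpn3 (0.26), Atp2c1 (0.36), Stag1 (0.36) and both probe sets of Ppm1b (0.39 and 0.42). Ptpn3 encodes a tyrosine phosphatase, Atp2c1 a calcium pump of the Golgi, Stag1 a cohesin subunit and Ppm1b a protein phosphatase of the PP2C type. Of the other Pdcd4 probe sets, 1383327_at lay at 0.34, 1383328_x_at at 0.38 and 1387521_at at 0.41 by the same measure, no nearer than Ptpn3. Pdcd4 1383329_at, at 0.80, lay within the range of the eIF4 factors, 0.71 to 0.92. Ptpn3 1376537_at read 28.0 ± 8.80 in COUP-TFII depleted cells and 52.0 ± 18.4 in control cells (SD, n = 3 each), close to the Bacillus level.

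Beyond the members, the lists around Pdcd4 and eIF4F were described by the brightest probe set of each gene. None of the 79 measured genes in the 7 lists passed an adjusted p of 0.05 in either limma fit. At an unadjusted p up to 0.05, 1 gene was lower and 0 were higher in the unpaired fit, where 1.34% of all probe sets were lower and 0.973% higher. In the blocked fit 3 were lower (Pabpc4, Mapk14 and Mknk2) and 1 was higher (Eif3m), where 6.23% of all probe sets had such a p in either direction. Of the 79 genes, 74 reached the median signal, and among the 15521 probe sets that did, 727 were lower and 529 higher in that fit. These counts in the lists are not read as a result. The gene of the unpaired fit was Pabpc4, a cytoplasmic poly(A)-binding protein, with 1349 ± 106 in COUP-TFII depleted cells and 1882 ± 123 in control cells (SD, n = 3 each). Its groups did not overlap, as for 3.45% of all probe sets in this direction. The log2 fold change was -0.48 (SE 0.13), with adjusted p-values from limma of 1 unpaired and 0.409 blocked.

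Other initiation factors had a median log2 fold change of 0.05 over 31 measured genes of 36 listed, with 21 higher and 10 lower by mean, beside a median of -0.0038 over the brightest probe sets of all genes. Eif3m, a subunit of the eIF3 complex, was the highest of them at 0.31 (SE 0.19), with 5054 ± 157 in COUP-TFII depleted cells and 4139 ± 916 in control cells (SD, n = 3 each) and no overlap, as for 3.24% of all probe sets in this direction. Without scrambled siRNA replicate 2, its lowest array, the log2 fold change of Eif3m was 0.12. The 8 further members of the eIF4 family, among them Eif4a3, Eif4e2 and Eif4g3, lay between -0.09 and 0.14, with 5 higher and 3 lower. For the 9 elongation and termination factors the median was 0.04. Of these Eef1a1, which carries aminoacyl-tRNA to the ribosome, read 9461 ± 600 in COUP-TFII depleted cells and 8279 ± 1072 in control cells (SD, n = 3 each), with a log2 fold change of 0.20 that was 0.02 after quantile normalization and 0.09 without scrambled siRNA replicate 2.

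For the kinases and the ligase that act on Pdcd4 protein, no gene passed the test. The 15 measured genes of mTORC1 and S6 kinase had a median of 0.06, ranging from -0.23 to 0.25, with Mlst8 the highest. Rps6kb1, the S6 kinase that phosphorylates Pdcd4, was at -0.04 (SE 0.56) on its brightest probe set and 0.19 (SE 0.31) on 1368116_a_at. The 6 genes of the SCF ligase lay between -0.10 and 0.19, with the β-TrCP genes Btrc at -0.09 and Fbxw11 at -0.10. A dimmer probe set of Btrc, 1374654_at, read 98.6, 118 and 107 in COUP-TFII depleted cells, against 127, 141 and 122 in control cells. Its groups did not overlap, as for 3.45% of all probe sets in this direction. The log2 fold change was -0.27 (SE 0.18), with adjusted p-values from limma of 1 unpaired and 0.798 blocked. The groups of Btrc 1391694_at, at -0.04 (SE 0.31), overlapped. Of the 5 genes in the eIF4E kinase list, 3 were measured. All 3 read lower by mean in COUP-TFII depleted cells, as 15651 of all 31042 probe sets did, and nothing is read from this count. They were Mknk2 (-0.39, SE 0.26) and Mknk1 (-0.35, SE 0.37), the kinases that phosphorylate eIF4E, and Mapk14 (-0.32, SE 0.15), the p38 kinase that activates them. The groups of Mknk2 and of Mknk1 overlapped, and Mknk2 read higher in depleted cells in replicate 3 (log2 difference 0.07). Mapk14 read 484 ± 52.5 in COUP-TFII depleted cells and 605 ± 58.8 in control cells (SD, n = 3 each). Its groups did not overlap, as for 3.45% of all probe sets in this direction, and its adjusted p in limma was 1 unpaired and 0.692 blocked.

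AP-1, the transcription factor whose activity Pdcd4 restrains in mouse skin cells, was read for 7 genes with a median of 0.05, and 3 of these were dim in both groups. The largest differences of that list, -1.50 for Fosl1 and -1.36 for Fosl2, belonged to dim probe sets, and another dim probe set of Fosl2, 1383860_at, was at 2.03. Jund, the brightest, read 1645 ± 107 in COUP-TFII depleted cells and 1362 ± 512 in control cells (SD, n = 3 each), with overlapping groups, and its log2 fold change of 0.35 was 0.01 without scrambled siRNA replicate 2. Other probe sets of Jund were dim, 1387762_s_at with means of 6.95 in depleted and 5.1 in control cells, and 1375768_at with 4.38 and 1.8.

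**Figure D4:**
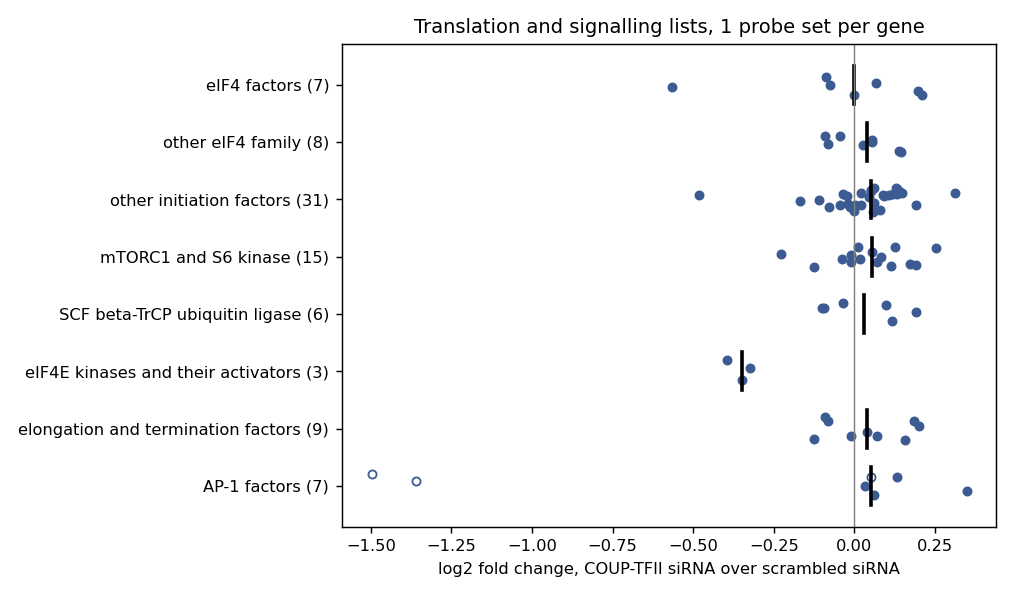
log2 fold change (COUP-TFII depleted over control cells) of each measured gene, 1 probe set per gene, where brackets hold the gene number, the median is drawn as a black bar and open points for probe sets dim in both groups (vertical scatter for display only). Medians lie between -0.35 for the 3 eIF4E kinase genes and 0.06 for mTORC1 and S6 kinase.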

How the data were processed

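RNA of COUP-TFII depleted and control cells was hybridized to 6 arrays. The deposited values are linear intensities, 1 per probe set and array, which the authors computed with MAS5 (version not given in the sources used here), subtracting background and scaling to reference probes they do not name. Of 31099 probe sets, 57 controls were left out. The log2 of each signal was used without further normalization, after values below 1 had been raised to 1. The comparison was an unpaired, two-sided fit in limma 3.58.1 (R 4.3.3; lmFit, then eBayes with trend), and p-values were adjusted by Benjamini-Hochberg over all 31042 probe sets. The fits were tested on simulated data drawn with independent noise for each array. That simulation held no shared deviation of same-numbered arrays, so it could not check the pairing or what the block gains from it. Probe sets were named from the platform annotation (1 symbol for 20826, several for 436, none for 9780).

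The members and lists were chosen with earlier results of these data known. The text names every member, Nr2f2, up to 3 genes a list by lowest p at or above the median signal and the 5 profiles nearest to the brightest Pdcd4 probe set. Genes named beyond this (Rps6kb1, Btrc, Fosl1, Fosl2 and the brightest markers, with the dimmer probe sets of Rps6kb1, Btrc, Fosl2 and Jund) were chosen after their values were seen. Arrays with the same replicate number in the labels deviated together from their group means (correlations over probe sets of 0.111, 0.231 and 0.163, against -0.146 to -0.0104 for different numbers), so the numbers were taken to pair the arrays. Deviations from a group mean cancel within the group, so positive values for the same numbers force negative ones on average for different numbers. The negative values are therefore no separate evidence of pairing. Alternative settings comprised the replicate block, leaving out each array, quantile normalization or median centring, a filter at the median signal, log2(signal + 16), eBayes with no trend and the methods' t-test. The number of arrays limits the precision. Figures were drawn with matplotlib 3.10.9.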

Additional observations from a re-analysis of the deposited data

How the results depend on the processing

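Of the 5 Pdcd4 probe sets, 4 kept their direction under every alternative run, and 1383329_at turned to 0.10 without COUP-TFII siRNA replicate 1. On those 4 the groups did not overlap, so leaving out arrays could not turn the direction, and nothing is read from it. The median of the 5, -1.07, lay between -1.19 and -0.89 whichever array was dropped. Of the 16 eIF4 probe sets 12 changed sign under at least 1 alternative and 4 did not (Eif4a1 1371936_at, Eif4a2 1371642_at, Eif4g1 1390340_a_at and Eif4b 1372124_at). Their median log2 fold change, 0.11, was 0.15 under the filter at the median signal, -0.0245 without scrambled siRNA replicate 2, the lowest of the settings with 1 array dropped, and 0.13 at the highest. The count of eIF4 probe sets called stayed at 0 under all alternatives, and the count at an unadjusted p up to 0.05 ran from 0 to 1 with 1 array left out, the 1 being Eif4a2 1371642_at without scrambled siRNA replicate 3 (log2 fold change 0.46).

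Over all probe sets 0 were called in the unpaired fit, 5 with the replicate block and 1 by the methods' t-test after Benjamini-Hochberg adjustment, and 0 with any 1 array left out. At an unadjusted p up to 0.05 the 717 were 1933 with the replicate block and 180 under the filter, which tests fewer probe sets. The block changed the call of Pdcd4 1383328_x_at and 1383327_at and of no other member. The setting without both replicate 2 arrays was added after the data were seen, and gave a median of -1.02 for Pdcd4 and 0.09 for the eIF4 factors. The cause of these differences was not tested. Low signal limits Eif4ebp1, Eif4e 1394529_at and Pdcd4 1383329_at.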
